A study of Mus musculus with 8 samples.

Results

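A set of 30 genes was chosen by name as the enzymes and regulators of fatty acid and cholesterol synthesis, out of 22180 genes on the arrays. They fall into 12 lipogenic genes, grouped with the transcription factor SREBP1 and its gene Srebf1, and 18 genes of sterol synthesis and sensing, grouped with SREBP2 and its gene Srebf2. A gene was read from a probe set annotated with that symbol alone, and where several existed, from the one with the highest mean over the 8 arrays. On this basis 28 of the 30 genes were measured, 11 lipogenic and 17 sterol genes. The desaturase gene Scd2 and the isoprenoid isomerase gene Idi1 shared their probe sets with another symbol and were given no value.

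RNA came from cells sorted from mouse colon as CD31-positive, CD45-negative and CD11b-negative, a gate for endothelium, 2 days after bone marrow transplantation. Recipients in both groups were female C57BL/6 mice that had first been given busulfan and cyclophosphamide for 5 days, and both received bone marrow together with T cells. Allogeneic recipients (n = 4) had LP/J donors, whose T cells can attack host tissue in graft-versus-host disease, and syngeneic recipients (n = 4) had C57BL/6 donors. Each of the 8 Affymetrix arrays held 1 sorted sample, and conditioned mice without a transplant or untouched mice were not analysed here, so the effect of the conditioning itself is in both groups. The recipients' age was not given in the sources used here.

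Values are normalized log2 signals, on which a difference of 1 is a 2-fold change, and changes are allogeneic minus syngeneic. The endothelial genes Pecam1 and Cdh5 averaged 10.1 and 9.69 in allogeneic and 10.6 and 10.3 in syngeneic arrays. Genes of colon epithelium were also strong on every array, for example Car1, a carbonic anhydrase of colonocytes, at 13.2 in allogeneic and 12.8 in syngeneic arrays. Over 25 endothelial genes the array means were 7.51 to 8.22 in the allogeneic and 7.80 to 9.59 in the syngeneic group, and over 24 epithelial genes 10.5 to 10.7 in the allogeneic and 9.97 to 10.6 in the syngeneic group. All 25 endothelial genes were on average lower and 21 of the 24 epithelial genes higher in the allogeneic group, although none of them passed the limma test below. At an unadjusted p below 0.05, 8 endothelial genes were lower and 7 epithelial genes higher. In such bulk samples fewer cells of a type and less RNA per cell cannot be told apart, and a signal cannot be assigned to endothelium or epithelium.

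Cells make fatty acids and cholesterol from the same precursor, cytosolic acetyl-CoA. Acetyl-CoA carboxylase and fatty acid synthase build palmitate, which elongases and desaturases modify, whereas the mevalonate pathway leads through isoprenoids and squalene to lanosterol and then cholesterol. SREBP proteins are held in the endoplasmic reticulum by SCAP and INSIG when sterols are plentiful, and when sterols fall they are cut in the Golgi and enter the nucleus, where they act on these genes together with factors such as NF-Y, which binds CCAAT boxes. In the gut, epithelial cells synthesize sterols for membrane renewal, and endothelial cells can both take up and make lipids.

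Windows around the transcription start, from 250 bases before to 50 bases after it, were read from RefSeq for the genes with an entry, 9 lipogenic and 14 sterol genes. On either strand, the CCAAT letters occurred in a window of 14 of 14 sterol genes and of 6 of 9 lipogenic genes, against 42.3% of 17491 protein-coding genes. The GC box letters GGGCGG, read by Sp1 and related factors, occurred in 13 of 14 sterol and 4 of 9 lipogenic genes, against 49.2% of protein-coding genes. The core letters of a sterol regulatory element, TCACNCCAC, occurred in 1 sterol gene, Hmgcs1, and in no lipogenic gene, against 1.41%. The shorter form CACNCCAC, which lies within the longer one, was found in 2 sterol genes and no lipogenic gene, against 7.26%. SREBP sites often deviate from these letters or lie elsewhere, so an absent match says only that these letters are not in the window. The CCAAT letters were a feature the 14 sterol genes shared. The letters were not used in choosing the genes. They are not independent of the grouping with SREBP2, which acts together with the CCAAT-binding NF-Y.

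The windows of 4 genes, chosen after values were seen, are printed 5′ to 3′ as examples. Hmgcs1 and Mvk are sterol genes, Fasn is the central lipogenic gene, and Acss2 is the neighbouring acetyl-CoA gene that passed the test. Capitals mark the CCAAT letters on either strand (ATTGG on the opposite one) and, in Hmgcs1 only, the sterol regulatory element letters, which begin 137 bases before the start.
Hmgcs1 (GRCm38.p6, chr13:119690101-119690400, plus strand): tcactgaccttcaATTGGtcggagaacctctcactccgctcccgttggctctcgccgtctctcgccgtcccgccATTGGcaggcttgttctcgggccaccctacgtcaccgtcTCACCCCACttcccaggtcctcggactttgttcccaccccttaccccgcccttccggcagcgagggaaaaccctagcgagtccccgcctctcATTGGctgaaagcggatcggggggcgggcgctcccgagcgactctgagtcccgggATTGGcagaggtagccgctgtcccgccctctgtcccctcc
Mvk (GRCm38.p6, chr5:114444019-114444318, plus strand): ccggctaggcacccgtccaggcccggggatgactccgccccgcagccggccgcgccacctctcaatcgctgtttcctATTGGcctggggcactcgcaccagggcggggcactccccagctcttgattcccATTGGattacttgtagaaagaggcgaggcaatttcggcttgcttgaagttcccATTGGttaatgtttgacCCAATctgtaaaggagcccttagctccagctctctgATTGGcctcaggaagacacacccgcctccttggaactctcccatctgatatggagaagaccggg
Fasn (GRCm38.p6, chr11:120824498-120824797, minus strand): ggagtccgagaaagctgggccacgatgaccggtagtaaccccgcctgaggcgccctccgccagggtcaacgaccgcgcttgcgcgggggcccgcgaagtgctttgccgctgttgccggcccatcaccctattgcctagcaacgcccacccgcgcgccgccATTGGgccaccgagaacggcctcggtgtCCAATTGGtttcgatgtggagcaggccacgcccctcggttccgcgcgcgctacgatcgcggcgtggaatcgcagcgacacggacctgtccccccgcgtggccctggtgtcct
Acss2 (GRCm38.p6, chr2:155517793-155518092, plus strand): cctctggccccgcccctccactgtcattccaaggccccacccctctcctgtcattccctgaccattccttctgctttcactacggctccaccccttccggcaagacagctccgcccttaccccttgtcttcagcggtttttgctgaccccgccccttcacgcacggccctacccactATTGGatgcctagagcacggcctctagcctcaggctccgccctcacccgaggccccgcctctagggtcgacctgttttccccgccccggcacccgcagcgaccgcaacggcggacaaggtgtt

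The comparison asked which of these genes differed between sorted colon cells of allogeneic and syngeneic recipients. None of the 11 lipogenic and none of the 17 sterol genes passed an adjusted p below 0.05 in limma, fitted and adjusted over all 22180 genes, of which 0.469% passed, 0.356% higher and 0.113% lower. At an unadjusted p below 0.05, 4 of the 28 genes were higher (Elovl6, Acly, Stard4 and Dhcr7) and 0 lower, where 7.81% and 5.43% of all genes were. The smallest adjusted p among the 28 genes was 0.211. The 95% confidence interval of the change, taken gene by gene, lay inside a 2-fold change in either direction for 27 of the 28 genes and inside a 1.5-fold change for 15, and the exception to the first was Hmgcs1. Standard errors of the log2 change ran from 0.11 to 0.29. The plot of changes with their intervals shows both sets beside each other.

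**Figure D1:**
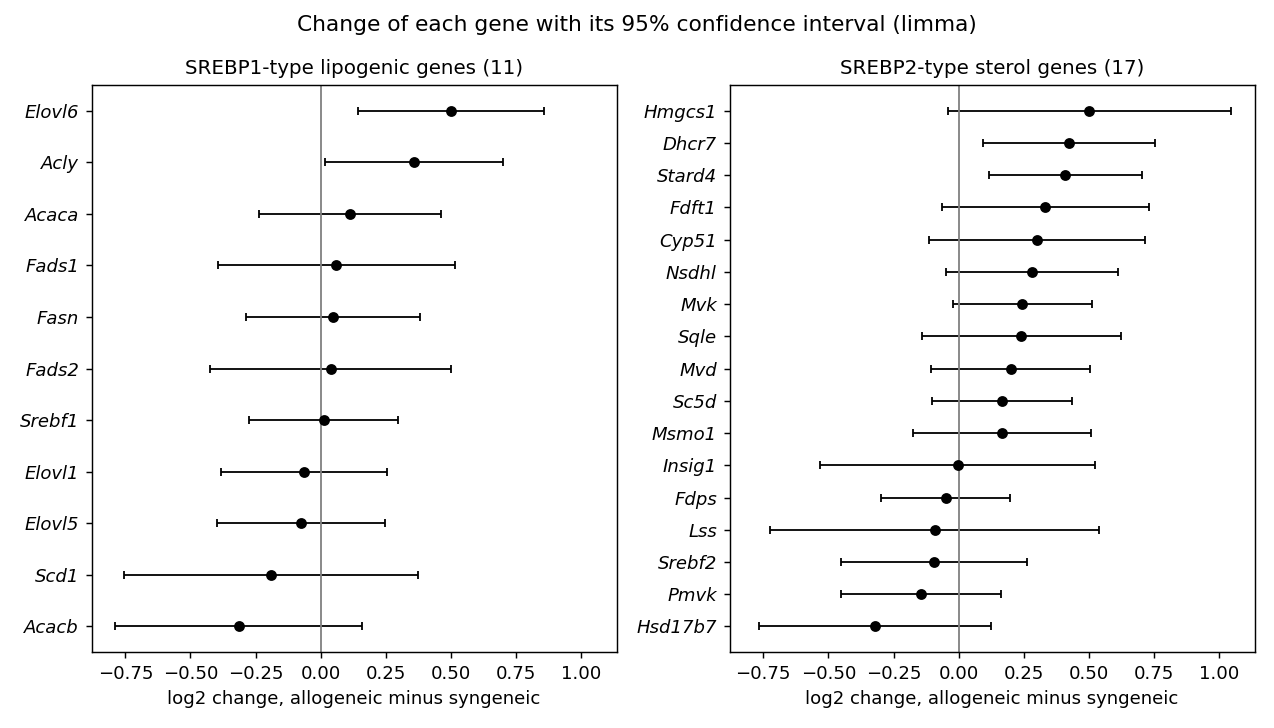
Log2 change (allogeneic minus syngeneic, horizontal axis) of 11 lipogenic genes (left) and 17 sterol genes (right), with 95% confidence intervals from limma. Most intervals cross 0, and those of Elovl6, Acly, Stard4 and Dhcr7 lie above it, though no gene passed after adjustment.

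Among lipogenic genes the enzymes at the entry to the pathway gave the following values. Acly, the ATP citrate lyase that makes cytosolic acetyl-CoA from citrate, measured 10.24, 10.16, 10.38 and 9.92 on the 4 allogeneic arrays and 9.82, 10.00, 10.04 and 9.40 on the 4 syngeneic arrays. The groups overlapped through allogeneic array 4, and syngeneic array 4 was lowest. Its log2 change was 0.36 ± 0.15 (SE, limma adjusted p = 0.352). Acaca, the cytosolic acetyl-CoA carboxylase that commits carbon to fatty acids, averaged 7.59 ± 0.21 in allogeneic and 7.48 ± 0.21 in syngeneic arrays (mean ± SD, n = 4 in each group), a change of 0.11 ± 0.16 SE. Acacb, the mitochondrial carboxylase whose product restrains fatty acid oxidation, averaged 5.95 ± 0.10 in allogeneic and 6.26 ± 0.47 in syngeneic arrays. Its change of -0.31 rested on syngeneic array 4, at 6.96 against 5.93 to 6.10 on the other 3, and was -0.08 without that array. Fasn, the synthase that assembles palmitate, measured 10.77, 10.51, 10.67 and 10.47 in the allogeneic group and 10.69, 10.70, 10.76 and 10.07 in the syngeneic group. Syngeneic array 4 was lowest, and 3 of the 4 allogeneic values lay below the other 3 syngeneic ones. The change was 0.05 with an interval from -0.29 to 0.38, and it turned to -0.11 without syngeneic array 4. Srebf1 itself measured 7.33 to 7.63 in allogeneic and 7.33 to 7.57 in syngeneic arrays, a change of 0.01 ± 0.13 SE.

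Of the genes that lengthen and desaturate fatty acids, Elovl6 had the largest change of the set. Elovl6, the elongase that turns palmitate into stearate, measured 9.17, 9.32, 8.99 and 8.90 in allogeneic and 8.93, 8.69, 8.52 and 8.24 in syngeneic arrays. Syngeneic array 1 lay just above allogeneic array 4, and every other syngeneic value lay below every allogeneic one. The change was 0.50 ± 0.16 (SE, limma adjusted p = 0.211), and it ranged from 0.38 to 0.61 when 1 array was left out. Elovl5, which elongates polyunsaturated fatty acids, and Elovl1, which makes very long saturated and monounsaturated chains, changed by -0.08 and -0.06. Their intervals, -0.40 to 0.24 and -0.38 to 0.25, included 0. Fads2 and Fads1, the desaturases that open the route to arachidonic acid, changed by 0.04 and 0.06. Fads2 was nearly constant in the allogeneic group (11.17 to 11.31), while in the syngeneic group array 4 measured 10.43 and the other 3 arrays 11.45 to 11.54. Without syngeneic array 4 its change was -0.23 (limma adjusted p = 0.17). Scd1, the stearoyl-CoA desaturase that makes oleate, averaged 7.69 ± 0.38 in allogeneic and 7.88 ± 0.48 in syngeneic arrays (mean ± SD, n = 4 in each group), with array 4 lowest in both groups.

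In the sterol set 11 of the 17 genes had a positive change and 6 a negative one, with a median change of 0.20, and in the lipogenic set 7 of 11 were positive, with a median of 0.04. Over all genes 49.0% were positive and the median was -0.01. Hmgcs1, the cytosolic HMG-CoA synthase at the entry to the mevalonate pathway, had the largest change of the sterol set. It measured 9.90, 9.28, 9.45 and 9.07 in allogeneic and 9.01, 9.32, 9.16 and 8.21 in syngeneic arrays. The groups overlapped, allogeneic array 1 was highest and syngeneic array 4 lowest. Its change of 0.50 ± 0.25 (SE, limma adjusted p = 0.422) was 0.26 without syngeneic array 4 and 0.11 with the epithelial list mean as a covariate.

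The kinases and the decarboxylase that follow gave smaller changes. Mvk, mevalonate kinase, measured 7.95, 7.93, 7.80 and 7.79 in allogeneic and 7.52, 7.70, 7.74 and 7.54 in syngeneic arrays. All 4 allogeneic arrays were above all 4 syngeneic arrays, by 0.05 at the nearest pair, and the change was 0.24 ± 0.12 (SE, limma adjusted p = 0.426). Pmvk, phosphomevalonate kinase, changed by -0.15 and Mvd, the decarboxylase that yields isopentenyl pyrophosphate, by 0.20. Fdps, farnesyl pyrophosphate synthase, had the narrowest interval of the 28 genes, with a change of -0.05 between -0.30 and 0.20. Fdft1, squalene synthase, which commits isoprenoids to sterols, measured 10.69, 10.35, 10.33 and 10.15 in allogeneic and 10.24, 10.37, 10.04 and 9.53 in syngeneic arrays. Syngeneic arrays 1 and 2 lay within the allogeneic range, and the change was 0.33 ± 0.18 (SE, limma adjusted p = 0.466). Sqle, squalene epoxidase, an enzyme that limits the rate of the later pathway, changed by 0.24 ± 0.17 SE.

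From lanosterol onward the genes differed among themselves. Lss, lanosterol synthase, varied most within a group, from 6.58 to 7.93 in allogeneic and 7.05 to 7.89 in syngeneic arrays, and its change was -0.09 ± 0.29 SE. Cyp51, the lanosterol demethylase, changed by 0.30 and Msmo1, the sterol C4-methyl oxidase, by 0.17. Nsdhl and Hsd17b7, which act with Msmo1 in removing the C4 methyl groups, had changes of opposite sign, 0.28 ± 0.15 and -0.32 ± 0.20 (SE, limma adjusted p = 0.456 and 0.541). Hsd17b7 ran from 6.41 to 7.36 in allogeneic and from 7.13 to 7.48 in syngeneic arrays. Sc5d, the desaturase of the last steps, changed by 0.17. Dhcr7, which carries out the final reduction to cholesterol, measured 9.54, 9.46, 9.29 and 9.18 in allogeneic and 9.03, 9.10, 9.10 and 8.54 in syngeneic arrays. All allogeneic values were above all syngeneic ones, syngeneic array 4 stood lowest, and the change was 0.42 ± 0.15 (SE, limma adjusted p = 0.251).

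Genes that sense or carry sterols gave a mixed picture. Stard4, a carrier of cholesterol between membranes, measured 8.60, 8.57, 8.60 and 8.60 in allogeneic and 8.27, 8.41, 8.17 and 7.88 in syngeneic arrays. The allogeneic arrays were almost identical and all above the syngeneic ones, and the change was 0.41 ± 0.13 (SE, limma adjusted p = 0.215). Insig1, which retains SREBP in the endoplasmic reticulum and is itself a sensitive SREBP target, measured 9.09, 8.58, 7.89 and 8.16 in allogeneic and 8.40, 8.52, 8.69 and 8.12 in syngeneic arrays. Its highest and lowest values were both allogeneic, and its change was 0.00 with an interval from -0.53 to 0.52. Srebf2 changed by -0.09 ± 0.16 SE. In 3 of the 28 genes (Stard4, Dhcr7 and Mvk) all allogeneic arrays were above all syngeneic arrays, where 5.18% of all genes showed this, and in 0 of 28 all were below, where 3.36% did.

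**Figure D2:**
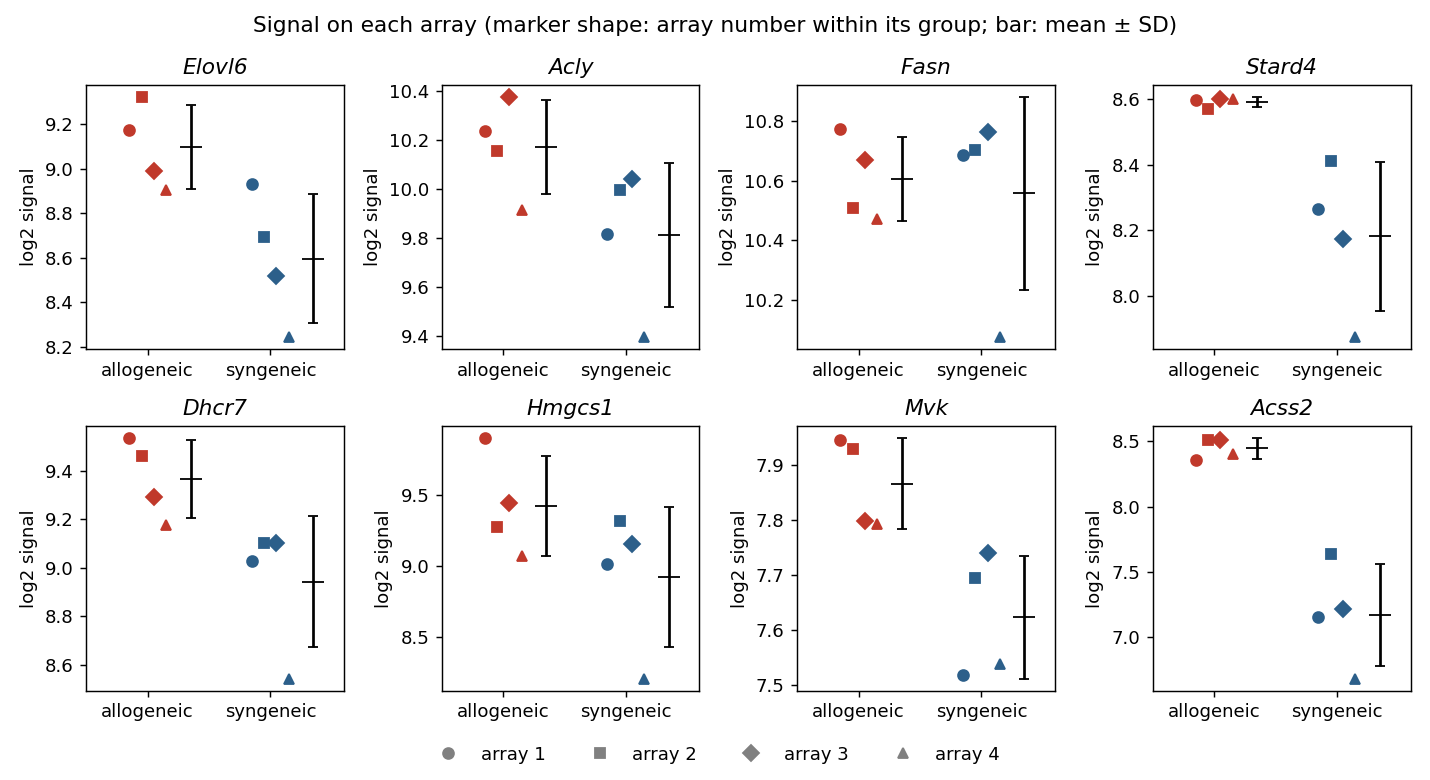
Log2 signal (vertical axis) of 8 genes on each allogeneic array (red, left) and syngeneic array (blue, right), with marker shape for the array number and the bar for mean ± SD (n = 4). Stard4, Dhcr7, Mvk and Acss2 do not overlap between the groups, whereas Elovl6, Acly, Fasn and Hmgcs1 do. Syngeneic array 4 is lowest in 7 of the 8 genes, Mvk being the exception.

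The sterol genes varied between arrays of the same group, with the same arrays high or low for many of them. Within the allogeneic group array 1 was highest in 13 of 17 sterol genes and array 4 lowest in 13. Within the syngeneic group array 2 was highest in 12 and array 4 lowest in 11. The mean over the 17 genes was 9.13, 8.90, 8.89 and 8.62 on allogeneic arrays 1 to 4 and 8.81, 8.97, 8.71 and 8.45 on syngeneic arrays 1 to 4. The group means, 8.89 ± 0.21 in allogeneic and 8.73 ± 0.22 in syngeneic arrays (mean ± SD, n = 4 in each group), differed by less than the spread within either group. The 11 lipogenic genes had means of 8.92, 8.75, 8.88 and 8.61 on the allogeneic and 8.82, 8.80, 8.82 and 8.55 on the syngeneic arrays. Array 4 was lowest in 7 of 11 lipogenic genes in each group.

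Cell type markers moved with the sterol means in part. In each group the order of the arrays by the sterol mean was the reverse of their order by the endothelial mean, with allogeneic arrays 2 and 3 nearly level in the sterol mean. The endothelial mean was 7.51, 7.66, 8.16 and 8.22 on allogeneic arrays 1 to 4 and 8.11, 7.80, 8.83 and 9.59 on syngeneic arrays 1 to 4. The lipogenic means did not have that reversed order in either group. The epithelial mean, 10.67, 10.54, 10.55 and 10.72 in the allogeneic and 10.51, 10.60, 10.32 and 9.97 in the syngeneic group, followed the sterol order among syngeneic arrays but was highest on allogeneic array 4, where sterol genes were lowest. That array also had the highest mean of 14 stromal and smooth muscle genes, 8.69 against 7.85 to 8.45 on the other 7 arrays. The leukocyte list (15 genes) ran from 5.16 to 5.86 in allogeneic and from 5.27 to 5.70 in syngeneic arrays, and its part in the result was not tested. The 6 measured genes of adipocytes, a strongly lipogenic cell type, had means of 6.27 to 6.52 in allogeneic and 6.14 to 6.58 in syngeneic arrays. Its genes went both ways, 2 positive and 4 negative, with Pck1 at 1.11 and Fabp4 at -0.39 (limma adjusted p = 0.121 and 0.567). Adipocyte content therefore cannot be read from this list mean. With the epithelial mean as a covariate the median change of the sterol genes was 0.02 in place of 0.20, with the endothelial mean 0.01, and 0.04 after removal of syngeneic arrays 3 and 4, which had the strongest endothelial signal. The covariates themselves differ between the groups, so cell content and donor type cannot be told apart in these fits. In the same fits the median of the lipogenic genes was -0.03, -0.05 and -0.05 in place of 0.04.

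**Figure D3:**
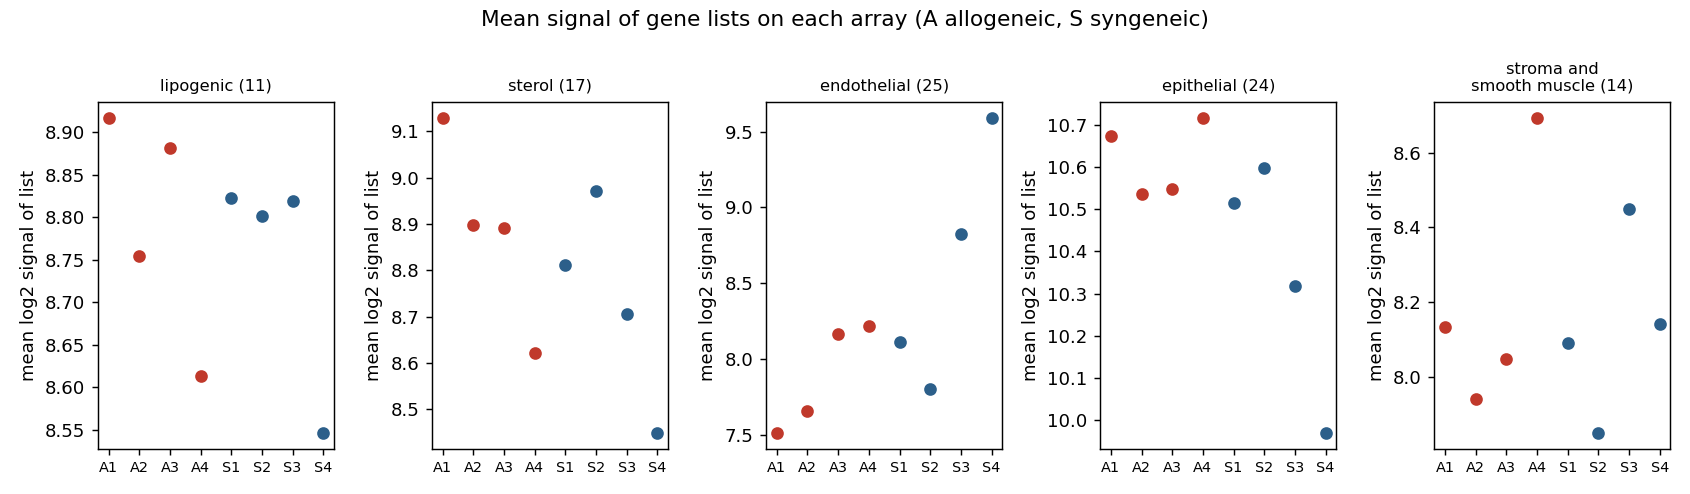
Mean log2 signal (vertical axes, each with its own range) of the lipogenic and sterol genes and of 3 marker lists on allogeneic arrays 1 to 4 (A, red) and syngeneic arrays 1 to 4 (S, blue). Syngeneic array 4 has the lowest lipogenic, sterol and epithelial means and the highest endothelial mean.

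Single genes moved by different amounts in these fits. Stard4, Dhcr7, Mvk and Elovl6 stayed positive, at 0.21, 0.23, 0.22 and 0.30 with the epithelial covariate and at 0.25, 0.30, 0.26 and 0.28 without syngeneic arrays 3 and 4. Fdft1 was at 0.01 with the epithelial covariate and 0.07 without these arrays. Scd1 was at -0.52 and -0.51 in these settings, Lss at -0.35 and -0.44, and Srebf2 at -0.30 and -0.22. No member passed in any of these fits, with a smallest adjusted p of 0.484 (epithelial covariate), 0.383 (endothelial covariate) and 0.257 (without both arrays).

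**Figure D4:**
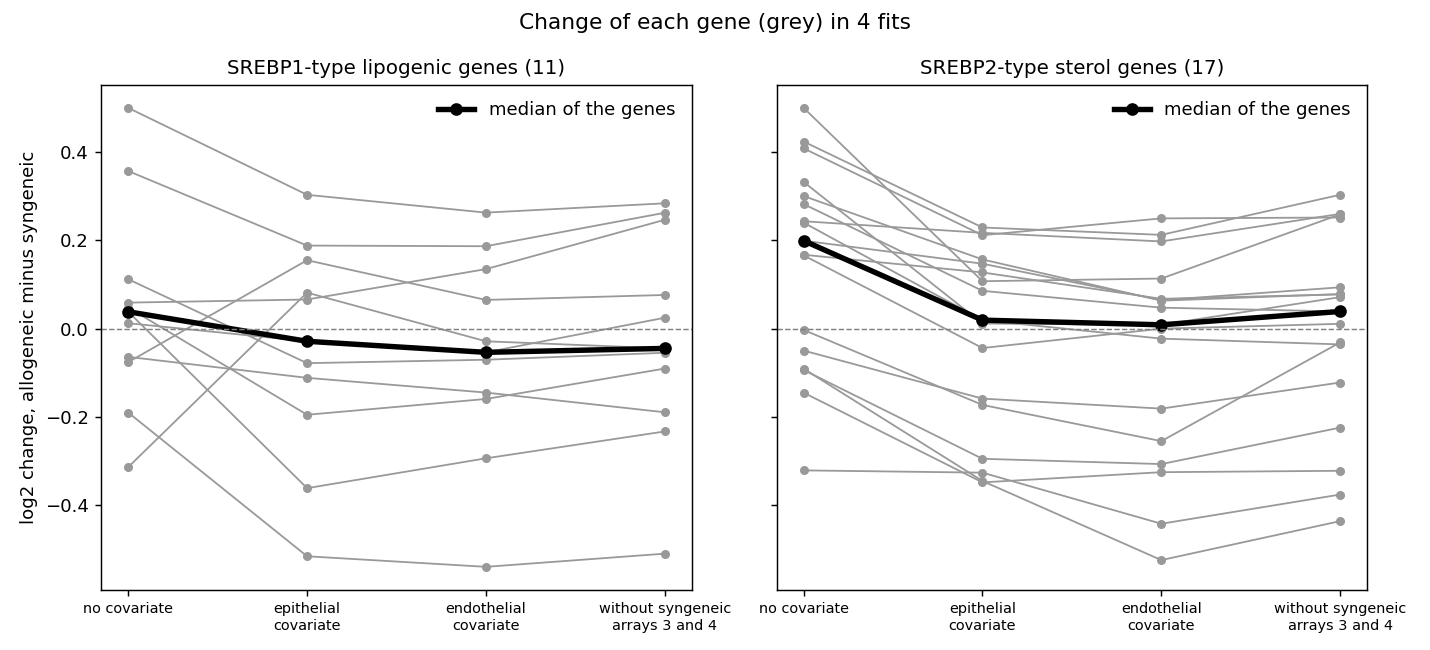
Log2 change (allogeneic minus syngeneic, vertical axis) of each lipogenic gene (left) and sterol gene (right) in 4 fits, grey per gene and black for the median. The sterol median is 0.20 without a covariate and between 0.01 and 0.04 in the other 3 fits.

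Other genes of the pathway were read from lists of neighbouring lipid genes. Of 27 measured genes in a broad list around fatty acid synthesis 1 rose and none fell, where 0.356% of all genes rose and 0.113% fell. A positive change was seen in 19, against 49.0% of all genes. At an unadjusted p below 0.05, 10 were higher and 0 lower (7.81% and 5.43% of all genes), and in 7 all allogeneic arrays were above all syngeneic ones (5.18%). The higher genes at that threshold included Pank1 and Pank3 of coenzyme A synthesis and Mlycd, a decarboxylase that opposes synthesis. They also included the mitochondrial Mecr and Mcat, so these counts do not stand for cytosolic fatty acid synthesis alone. Acss2, the cytosolic and nuclear acetyl-CoA synthetase that makes acetyl-CoA from acetate and is a known SREBP target, measured 8.36, 8.51, 8.51 and 8.41 in allogeneic and 7.15, 7.63, 7.21 and 6.68 in syngeneic arrays. The nearest values of the groups were 0.72 apart, with a tight allogeneic group. The log2 change was 1.28 ± 0.18 (SE, limma adjusted p = 0.0238), the one call among 107 measured genes of 6 neighbouring lists. The call did not hold with the epithelial covariate (change 0.99, limma adjusted p = 0.116), the endothelial covariate (1.03, 0.0539) or after removal of syngeneic arrays 3 and 4 together (1.06, 0.0527). Leaving out single arrays ended it in 6 of 8 fits, with limma adjusted p-values between 0.0132 and 0.0974. The change stayed between 1.11 and 1.43 in these 8 fits. Its change was thus larger than that of Acly, which makes the same product from citrate, but this difference between genes was not tested. Pank1, a pantothenate kinase of coenzyme A synthesis, had a change of 0.85 ± 0.20 (limma adjusted p = 0.103). Mecr, the reductase of mitochondrial fatty acid synthesis (0.62, 0.131), and Hacd4, a dehydratase of the elongation cycle (0.73, 0.138), also had all allogeneic arrays above all syngeneic ones. Hacd4 was weak, at 3.98 to 5.30 over all arrays, below the median gene mean of 5.33. With the epithelial covariate the changes of Pank1, Mecr and Hacd4 were 0.53, 0.37 and 0.98.

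None of the 18 measured genes passed in a broad list around SREBP, the sterol-sensing receptor LXR and other lipogenic regulation. Thrsp, the lipogenic factor Spot 14, measured 6.35, 5.73, 6.65 and 6.90 in allogeneic and 6.80, 7.19, 7.04 and 8.16 in syngeneic arrays. It was highest on syngeneic array 4, the array where Fasn and Acly were lowest, and its change was -0.89 ± 0.31 (SE, limma adjusted p = 0.251). Scap, the escort of SREBP, had a change of -0.20 ± 0.10 with all allogeneic arrays below all syngeneic ones, by 0.10 at the nearest pair. Mbtps1, the Golgi protease that first cuts SREBP, and Erlin2, which takes part in the degradation of membrane proteins of sterol synthesis, had changes of 0.33 and 0.29.

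None of the 11 measured genes in a further list around sterol synthesis passed, and their median change was -0.01. The list also holds genes of other isoprenoid products, such as Nus1 and Ggps1, so this median does not stand for sterol synthesis alone. Nus1 (-0.31), a subunit of the dolichol-forming prenyltransferase, Cyb5b (-0.35), the outer mitochondrial cytochrome b5, Ggps1 (0.26), which makes geranylgeranyl pyrophosphate, and Tm7sf2 (0.25), a sterol C14 reductase, had the smallest p-values. Of 23 genes of sterol uptake, efflux and storage none passed. Ch25h, which makes 25-hydroxycholesterol, an oxysterol that restrains SREBP processing, measured 7.15, 6.25, 6.78 and 7.70 in allogeneic and 7.92, 7.12, 8.16 and 9.07 in syngeneic arrays. Its groups overlapped, the change was -1.10 ± 0.39 (SE, limma adjusted p = 0.262), and it was -0.59 with the epithelial covariate and -0.45 with the endothelial one. Osbpl2 (0.68), an oxysterol-binding protein, Stard5 (0.56), a sterol carrier, and Nceh1 (0.42), a cholesteryl ester hydrolase, had limma adjusted p-values between 0.139 and 0.158. With the epithelial covariate these changes were 0.48, 0.31 and 0.39. The change of Nceh1, a gene with 2 probe sets, was as low as 0.21 among the alternative fits.

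Triglyceride assembly and ketone body genes completed the neighbouring lists, with none of 24 and none of 4 past the threshold. At an unadjusted p below 0.05 the 6 lists held 21 higher and 3 lower genes among 107, and the 5 lists without a call 11 higher and 3 lower among 80, where 7.81% of all genes were higher and 5.43% lower. Dgat1, which adds the last acyl chain to triglycerides, and Agpat5, an acyltransferase, had changes of 0.48 and 0.51. Mttp, which loads lipid onto lipoproteins, had a change of -0.39. It was weak, averaging 4.73 in allogeneic and 5.12 in syngeneic arrays, below the median gene mean of 5.33. Plin3, a lipid droplet coat protein, changed by 0.28. Acat1, the mitochondrial acetoacetyl-CoA thiolase, measured 9.28, 9.36, 9.39 and 9.37 in allogeneic and 9.06, 8.82, 8.67 and 8.26 in syngeneic arrays. The groups did not overlap, and the change was 0.65 ± 0.16 (SE, limma adjusted p = 0.109). Oxct1, which activates ketone bodies for use, also had all allogeneic arrays above all syngeneic ones, with a change of 0.48 (limma adjusted p = 0.163). With the epithelial covariate Acat1 and Oxct1 changed by 0.39 and 0.30. Bdh1 and Bdh2, hydroxybutyrate dehydrogenases, had changes of 0.33 and -0.03.

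**Figure D5:**
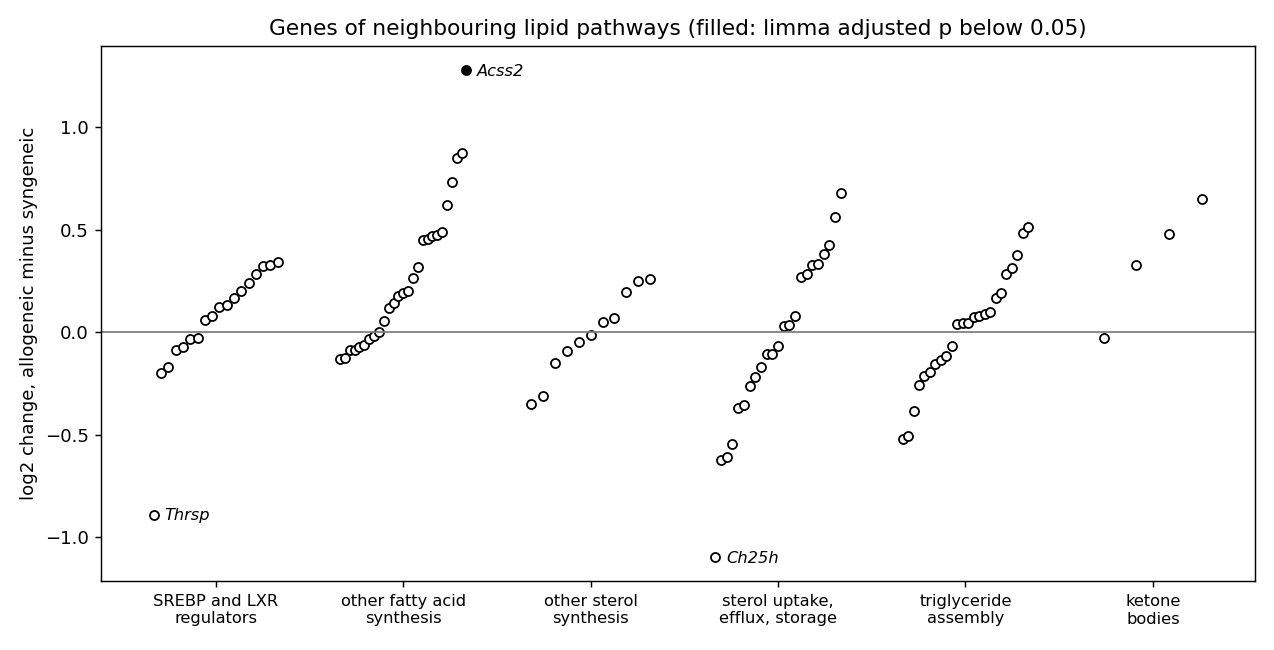
Log2 change (allogeneic minus syngeneic, vertical axis) of 107 genes in 6 lists of neighbouring lipid pathways, 1 point per gene sorted within its list. The filled point, Acss2 at 1.28, is the gene with a limma adjusted p below 0.05, and the labelled open points Thrsp and Ch25h had the most negative changes, -0.89 and -1.10.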

How the data were processed

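Total RNA of sorted colon cells was amplified and labelled with the WT Pico kit and hybridized to 8 GeneChip Mouse Gene 2.0 arrays, per the labels' protocols. The deposited table holds the authors' log2 signals, 1 value for each probe set and array. Expression Console 1.4.1 with RMA (background correction, quantile normalization, summary of probes) is named in the submitters' processing notes. No scanner files entered the analysis and detection is unknown. The number of arrays limits the precision. Of 41345 probe sets, 23521 had exactly 1 gene symbol in the platform annotation, which gave 22180 genes.

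Groups came from the sample titles, which call the samples biological replicates. A linear model of donor type per gene was fitted with limma 3.58.1 under R 4.3.3, using an intensity-dependent variance prior, no filter and no covariate. It gave the change, its SE and its 95% interval, with Benjamini-Hochberg adjustment over all genes at a threshold of 0.05. The fit was checked on simulated data with known changes and noise independent between genes, which leaves out array-wide shifts shared by many genes. All members are described, and of each neighbouring list the genes past the threshold, filled up to 4 by the smallest p. The printed promoters were chosen after values were seen. Members, lists and alternatives were chosen with earlier results of these data known. Alternatives changed the variance prior, the scaling, array weights, covariates, the choice of probe set and the arrays included, or dropped dim genes. Promoter windows are from RefSeq (GRCm38.p6). No batch was given in the sources used here.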

Additional observations from a re-analysis of the deposited data

Results flagged for a closer look

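Within a group of 4 arrays, an array was singled out where its gap to the nearest other was too large a part of the group's range by Dixon's criterion, which picks about 1 in 20 groups by chance. This held in 6 of 56 groups of the members and 2 of 48 groups of the neighbouring genes. Syngeneic array 4 accounted for 4 of them. There Fasn was at 10.07 (others 10.69 to 10.76), Fads2 at 10.43 (others 11.45 to 11.54), Dhcr7 at 8.54 (others 9.03 to 9.10) and Acacb, in the other direction, at 6.96 (others 5.93 to 6.10). This array also had the highest endothelial mean (9.59) and the lowest epithelial mean (9.97), and their part in these values was not tested. Fads1 was at 10.01 on syngeneic array 3 (others 9.17 to 9.29). Stard4 was at 8.57 on allogeneic array 2 (others 8.60), a gap of under 0.03. Nus1 was at 8.27 on allogeneic array 4 (others 8.86 to 8.92) and Erlin2 at 9.43 on allogeneic array 1 (others 9.12 to 9.13).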

How the results depend on the processing

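None of the 28 members passed limma's threshold in any of 20 alternatives, and the adjusted p of Elovl6 ran from 0.123 to 0.684 and that of Stard4 from 0.122 to 0.714. The median change ranged from -0.02 to 0.09 (lipogenic) and 0.14 to 0.27 (sterol) when 1 array was left out, and the sterol median was positive in every alternative. Signs turned for at most 7 of 28 members, with either covariate. The number of genes called over the whole table (79 higher and 25 lower) was less stable. It was 138 and 55 among genes above the median gene, 143 higher with arrays shifted to one median, 46 higher after quantile normalization, and 39 lower with array weights. It was 6 and 3 with the epithelial covariate, 19 and 11 with the endothelial covariate, 26 and 12 without both syngeneic arrays 3 and 4, and 203 and 102 at an adjusted p below 0.1. Leaving out single arrays gave 4 to 145 higher and 4 to 35 lower genes. The cause of these shifts was not tested. Replicate numbers did not pair the arrays (correlations of same-numbered deviations -0.10 to 0.10, and 3 of 8 arrays closest to their own number). With the replicate block 40 genes were higher and 28 lower, no member passed, and Ch25h passed (-1.10, limma adjusted p = 0.0493). With 4 arrays per group, no change of a member passed after adjustment over all genes. The unadjusted 95% intervals of Elovl6, Acly, Stard4 and Dhcr7 lay above 0, and those of the other members included 0.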
